A study of Caenorhabditis elegans with 12 samples.

Results

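The 43 genes described here act in the germ line stem cells, the oocyte and the eggshell of Caenorhabditis elegans. They were selected by symbol from the deposited table of 46936 genes, and all 43 were present. All 43 also passed the filter on low counts, which kept 15575 genes. By role they comprised 7 genes of stem cell and translational control, 4 of P granules, 14 RNA-binding proteins of the oocyte and early embryo, 6 of egg activation, 7 of the eggshell, the yolk receptor rme-2 and 4 of oocyte ribonucleoprotein particles.

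RNA was sequenced from whole animals that were wild type, carried skn-1gf or daf-2lf alone, or combined both as the daf-2lf;skn-1gf double mutant, and each of these 4 genotypes had 3 libraries. By worm convention gf marks a gain-of-function and lf a loss-of-function mutation. skn-1 encodes an Nrf-like transcription factor of stress and metabolic responses, and daf-2 the insulin/IGF-1 receptor. The mutations are named no further in the labels, which give no alleles, age or stage, and all animals were grown on plates seeded with OP50 bacteria. The series set out to compare the double mutant with daf-2lf.

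In the hermaphrodite gonad, Notch signalling through GLP-1 keeps germ cells at the distal end dividing as stem cells. Their descendants enter meiosis, make sperm and then oocytes, and much of this order is set by RNA-binding proteins that repress, store or activate mRNAs made earlier. Growing oocytes take up yolk and load the proteins that pattern the early embryo, and after fertilisation they build an eggshell of vitelline, chitin and proteoglycan layers. Because most of these genes are read mainly in germ cells, a bulk level from a whole animal depends on how much germ line the animal holds: fewer germ cells and less RNA per cell cannot be told apart here.

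Libraries held 16779245 to 29346039 counts, so 3 counts corresponded to 0.105 to 0.192 CPM (counts per 1e6 after TMM scaling, the unit of all levels below). skn-1 itself averaged 118 CPM in wild type, 149 in skn-1gf animals, 172 in daf-2lf and 220 in double mutants. Its level passed in skn-1gf and daf-2lf against wild type (edgeR adjusted p = 0.0264 and 0.00144). In the double mutant it passed against skn-1gf (edgeR adjusted p = 0.00182) and not against daf-2lf (edgeR adjusted p = 0.176). The level of daf-2 did not pass the test in any comparison, with a mean of 92.7 CPM and an SD of 57.1 in daf-2lf. Neither level reports whether the mutation is present. Libraries of skn-1gf stood apart from each other on the 43 genes, and those of wild type and daf-2lf did so less. In skn-1gf, replicate 3 was the highest of its group for 42 genes and replicate 2 the lowest for 41. The corresponding shares of all genes were 39.7% and 38.9%. Wild-type replicate 3 was the lowest of its group for 38 genes (37.9% of all genes). Of the 40 genes with counts in daf-2lf, its replicate 2 was the lowest for 34 (26.8% of all genes). In daf-2lf replicate 1, long genes were low against replicates 2 and 3. Over 1050 genes longer than 3500 bases the median log2 ratio was -1.26, against 0.23 over 10570 genes shorter than 2000 bases. Counts of the 43 genes called against wild type are given below without each skn-1gf library and without daf-2lf replicates 1 and 2.

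Wild type held the highest level of nearly every gene. Its lowest library lay above all 9 mutant libraries for 42 of the 43 genes, and mbk-2 was the exception. Together the 43 genes made up 4257 to 4920 CPM in wild type, 1125 to 2751 in skn-1gf animals, 1081 to 1584 in daf-2lf and 1561 to 1638 in double mutants. The most frequent order of the genotype means, in 29 genes, ran from wild type through skn-1gf and the double mutant down to daf-2lf. The lower places of that order were not separated by the libraries: in only 2 genes, perm-2 and perm-4, did every skn-1gf library lie above all 6 libraries with daf-2lf, and the daf-2lf and double-mutant libraries overlapped in 38 genes.

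**Figure D1:**
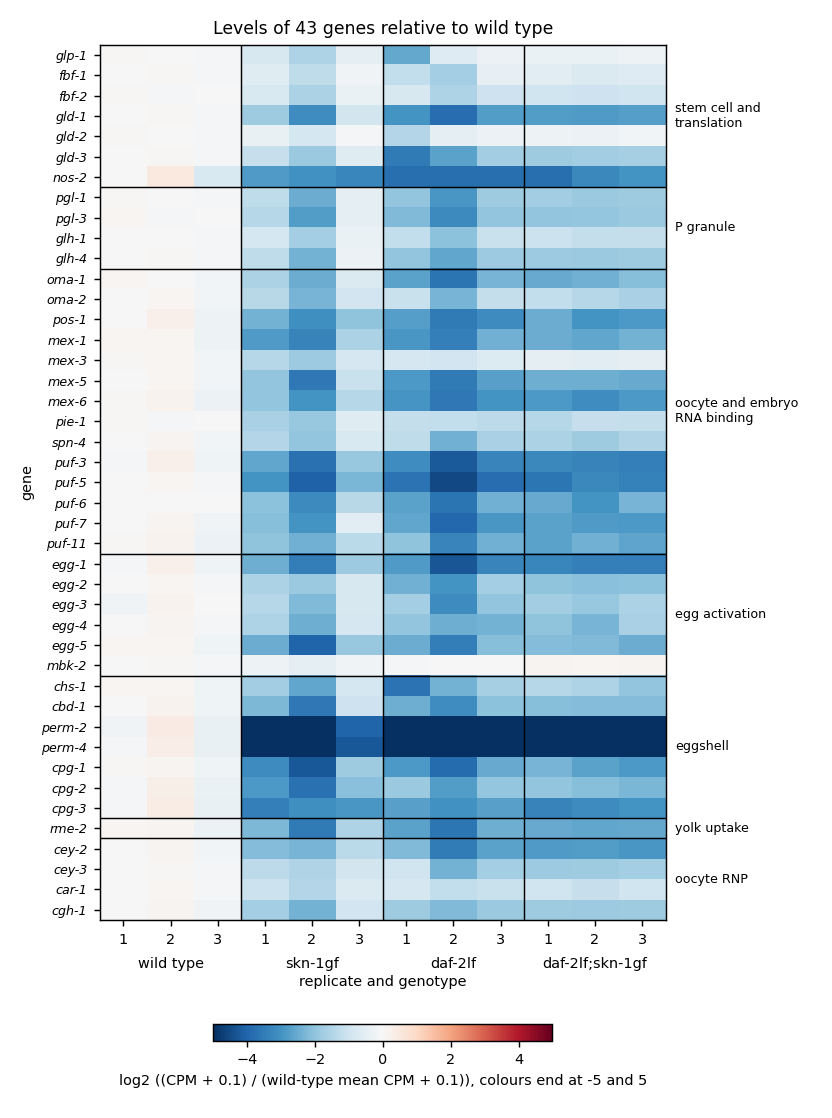
Level of each of the 43 genes (rows, grouped by role) in each of the 12 libraries (columns), as a log2 ratio to the wild-type mean with a small pseudocount. Nearly all mutant cells are blue (lower than wild type), replicate 2 is the darkest column of skn-1gf for 41 genes, and mbk-2 stays near 0 throughout.

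In skn-1gf, 39 of the 43 genes were lower than in wild type at an edgeR adjusted p under 0.05 and none was higher, where 21% of all tested genes were called lower and 43.6% in either direction. The libraries of both groups did not overlap for any of the 43, again with wild type higher, as for 33.2% of all genes. The median log2 difference was -1.56, against 0.03 over all tested genes. The genes that did not pass were glp-1, fbf-1, gld-2 and mbk-2. Group means stood between 2.38% (perm-4) and 82.5% (mbk-2) of wild type, with a median of 34.0%. Without skn-1gf replicate 1 the count of genes called lower was 30 and the median -1.49. Without replicate 2 the count was 31 and the median -1.26, and without replicate 3 the count was 41 and the median -2.11. Of all genes, those fits called 4802, 4914 and 7547 in either direction, beside 6787 with every library.

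In daf-2lf, 41 of the 43 were lower than in wild type and none was higher, where 22.9% of all tested genes were called lower; the exceptions were glp-1 and mbk-2. The libraries did not overlap for 42 genes, as for 29.3% of all genes in this direction. The median log2 difference was -2.47, against 0.15 over all tested genes, and the median level was 18.01% of wild type. Without daf-2lf replicate 1 the count was 41 and the median -2.58, and without replicate 2 the count was 39 and the median -2.25. Of all genes, those fits called 9420 and 7518 in either direction, beside 8152 with every library. The comparisons of skn-1gf and of daf-2lf share the wild-type libraries. In the double mutant the median level was 22.8% of wild type.

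**Figure D2:**
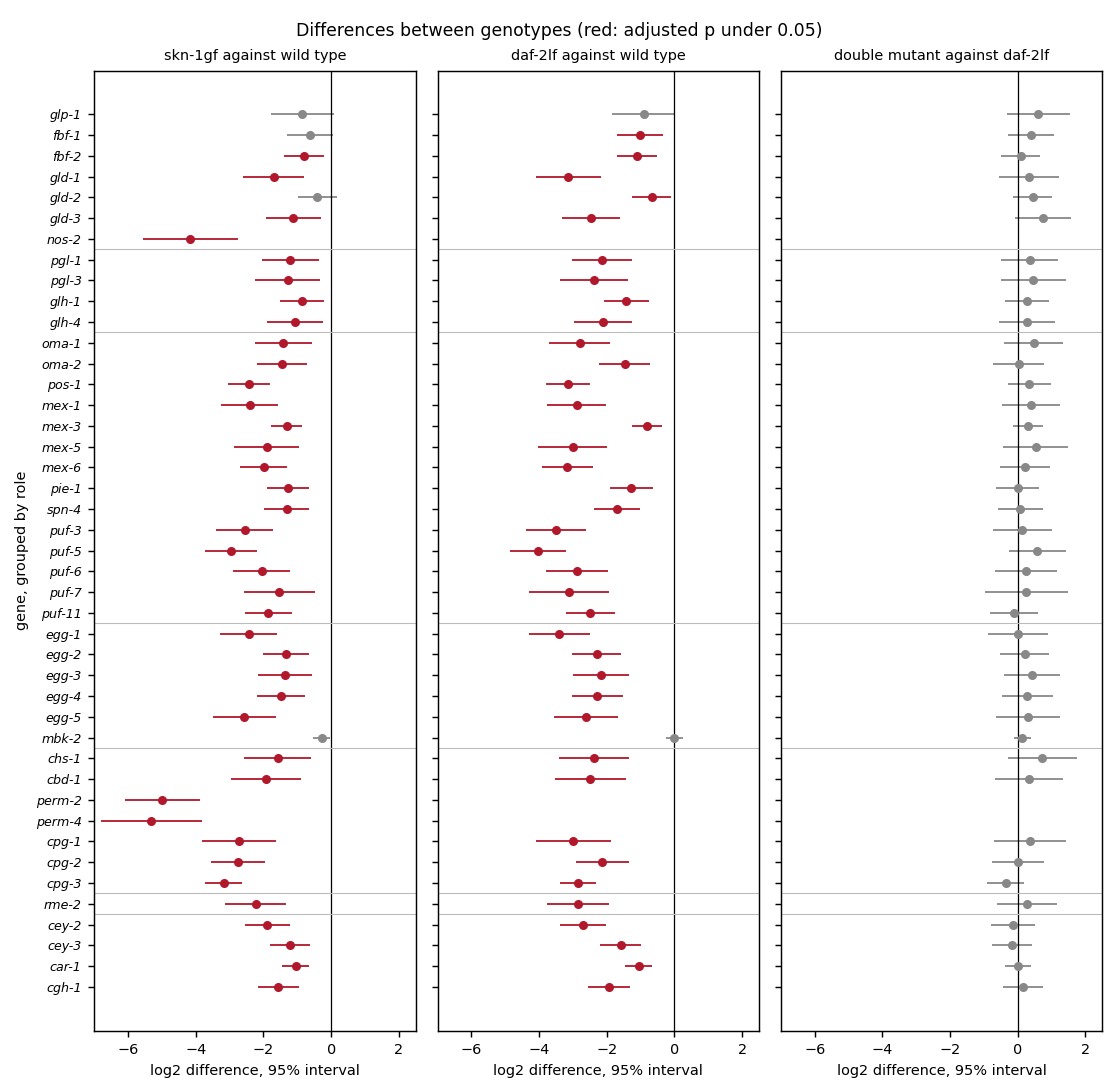
Log2 differences (horizontal axis) with 95% intervals for each gene in 3 comparisons: skn-1gf against wild type, daf-2lf against wild type, and the double mutant against daf-2lf; genes with a group at 0 counts are left out. Points of the first 2 comparisons lie left of 0, except mbk-2 in daf-2lf, and puf-5 lies farthest left in daf-2lf, while the intervals of the double mutant against daf-2lf all span 0.

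Stem cell and translational control genes had the smallest median differences of the roles: 4 of 7 were called lower in skn-1gf, with a median log2 difference of -0.85, and 6 of 7 in daf-2lf, with a median of -1.10. glp-1 (gene 176286, chromosome III:9092241-9099698, plus strand), the Notch receptor that maintains the stem cells, stood at 65.4, 61.8 and 59.2 CPM across wild type, 36.05, 21.2 and 45.95 across skn-1gf, 10.4, 39.3 and 50.04 across daf-2lf and 49.6, 49.9 and 52.1 across the double mutant. Its 3 low values in skn-1gf did not overlap wild type, but the log2 difference of -0.85 (SE 0.43, edgeR adjusted p = 0.125) did not pass; without daf-2lf replicate 1 in the fit of all genotypes it was -0.93 and passed (edgeR adjusted p = 0.00457). daf-2lf replicate 1 was far below its group for this long gene, and the difference from wild type was -0.90 (SE 0.43, edgeR adjusted p = 0.0946) with it and -0.58 without it (edgeR adjusted p = 0.0637).

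Among the 7 genes of stem cell and translational control, gld-1 (gene 172532, I:7695681-7698222, plus strand) was the largest faller other than nos-2. It encodes a KH-domain protein that moves germ cells into meiosis and represses oocyte mRNAs. Its level was 369, 384 and 346 CPM across wild type, 106, 42.5 and 192 across skn-1gf, 46.6, 25.8 and 52.3 across daf-2lf and 53.3, 50.7 and 53.5 across the double mutant. No mutant library reached wild type, and the log2 differences were -1.69 (SE 0.41, edgeR adjusted p = 0.00679) in skn-1gf and -3.14 (SE 0.44, edgeR adjusted p = 8.54e-05) in daf-2lf. gld-3, a Bicaudal-C-like partner of GLD-2, fell by 2.47 on the log2 scale in daf-2lf and passed in skn-1gf too (log2 difference -1.117), a call lost in 5 of 22 alternative fits, among them those without skn-1gf replicate 1 or 2. The daf-2lf value of gld-3 includes 5.42 CPM in replicate 1 beside 9.75 and 18.96 CPM in the others, and without that replicate the difference was -2.24.

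gld-2, the catalytic subunit of a cytoplasmic poly(A) polymerase, was the least changed of this group in daf-2lf. It measured 137, 132 and 124 CPM across wild type, 102, 72.1 and 123.4 across skn-1gf, 47.3, 92.2 and 107 across daf-2lf and 110.3, 106 and 118 across the double mutant. Wild type was highest without overlap, yet skn-1gf did not pass (-0.40, SE 0.26, edgeR adjusted p = 0.234), and the call in daf-2lf (-0.67, SE 0.26, edgeR adjusted p = 0.0496) was lost in 11 of 22 alternative fits. Without daf-2lf replicate 1 it was -0.50 and passed (edgeR adjusted p = 0.0383).

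The Pumilio proteins FBF-1 and FBF-2 repress mRNAs of meiotic entry in the stem cells. fbf-1 stood at 33.9, 34.9 and 32.2 CPM across wild type, 21.9, 13.8 and 29.8 across skn-1gf, 14.4, 10.2 and 25.13 across daf-2lf and 23.4, 20.5 and 21.6 across the double mutant. fbf-2 stood at 39.7, 36.9 and 37.7 CPM across wild type, 22.7, 12.6 and 30.3 across skn-1gf, 21.7, 12.8 and 18.7 across daf-2lf and 18.8, 18.4 and 19.2 across the double mutant. Both genes lay below wild type in every mutant library; fbf-1 passed in daf-2lf (-1.02, SE 0.31, edgeR adjusted p = 0.0159) and did not in skn-1gf (-0.62, SE 0.31, edgeR adjusted p = 0.123). fbf-2 passed in both (-1.10, SE 0.27, edgeR adjusted p = 0.00486 in daf-2lf and -0.80, SE 0.27, edgeR adjusted p = 0.0312 in skn-1gf), the skn-1gf call being lost in 6 of 22 alternative fits. The per-length ratio of fbf-1 to fbf-2 was 0.864 to 0.957 in wild type, 0.980 to 1.11 in skn-1gf animals, 0.672 to 1.36 in daf-2lf and 1.13 to 1.26 in double mutants.

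nos-2, a Nanos-family gene of the primordial germ cells, was near the detection limit. Raw counts were 34, 37 and 15 in wild type, 2, 1 and 1 in skn-1gf animals, 0 in all 3 daf-2lf libraries, and 0, 1 and 2 in the double mutant. Against wild type this is at least 6.99-fold lower in daf-2lf, taking 3 counts per library as the floor, 19.4-fold lower in skn-1gf (95% counting interval 7.57 to 71.1) and 30.2-fold lower in the double mutant (10.4 to 147). The gene overlaps him-14 on the opposite strand, which holds 2320% of its own counts; the handling of strand is not given in the sources used here, so reads of both genes may be mixed.

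All 4 P granule genes were called lower in skn-1gf (median log2 difference -1.13) and in daf-2lf (median -2.12). None of the 4 skn-1gf calls was made in the 5 fits that left out skn-1gf replicate 1 or 2 or a wild-type replicate. P granules are RNA-protein condensates on the germ cell nuclei; PGL-1 and PGL-3 form their scaffold, and GLH-1 and GLH-4 are Vasa-like helicases. pgl-3 (gene 178867, V:4755979-4758587, plus strand) fell most in daf-2lf, at 118, 104 and 108 CPM across wild type, 40.6, 15.9 and 78.97 across skn-1gf, 23.5, 11.9 and 28 across daf-2lf and 28.02, 28.7 and 30.7 across the double mutant. Replicate 2 of skn-1gf lay among the daf-2lf libraries, and its replicates 1 and 3 lay between daf-2lf and wild type. The log2 differences were -1.28 (SE 0.44, edgeR adjusted p = 0.034) in skn-1gf and -2.38 (SE 0.46, edgeR adjusted p = 0.000983) in daf-2lf.

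glh-1 (gene 172414, I:6854478-6857536, plus strand) fell least of this group, at 692, 684 and 647 CPM across wild type, 365, 209 and 536 across skn-1gf, 288, 161 and 308 across daf-2lf and 319, 297 and 298 across the double mutant. The same skn-1gf order appeared, with replicate 3 nearest to wild type and replicate 2 among the daf-2lf values. Log2 differences were -0.87 (SE 0.30, edgeR adjusted p = 0.0336) in skn-1gf and -1.42 (SE 0.30, edgeR adjusted p = 0.00187) in daf-2lf. pgl-1 (-1.20, SE 0.39, edgeR adjusted p = 0.0269 and -2.14, SE 0.40, edgeR adjusted p = 0.000801) and glh-4 (-1.06, SE 0.38, edgeR adjusted p = 0.0399 and -2.10, SE 0.39, edgeR adjusted p = 0.000789) lay between them in daf-2lf, and the skn-1gf call of glh-4 was lost in 11 of 22 alternative fits.

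All 14 RNA-binding genes of the oocyte and early embryo were called lower in both single mutants, with median log2 differences of -1.88 in skn-1gf and -2.89 in daf-2lf. puf-5 (gene 174373, II:8575541-8577787, plus strand), a Pumilio-family repressor in growing oocytes, fell most. It measured 23.5, 25.6 and 22.3 CPM across wild type, 2.88, 1.34 and 4.81 across skn-1gf, 1.76, 0.957 and 1.63 across daf-2lf and 1.86, 2.46 and 2.199 across the double mutant. No mutant library exceeded 4.81 CPM, far under the lowest wild-type library, the skn-1gf and daf-2lf libraries overlapped, and the log2 differences were -2.96 (SE 0.35, edgeR adjusted p = 5.2e-05) in skn-1gf and -4.03 (SE 0.38, edgeR adjusted p = 3.7e-06) in daf-2lf.

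mex-3 (gene 171607, I:127285-134270, plus strand), a KH-domain repressor in distal germ cells and early embryos, fell least in daf-2lf. Its level was 48.3, 49.4 and 42.6 CPM across wild type, 17.5, 13.03 and 25.7 across skn-1gf, 26.2, 24.3 and 29.4 across daf-2lf and 33.8, 31.8 and 33.3 across the double mutant. Here skn-1gf, not daf-2lf, was the lowest group on average, and all 3 double-mutant libraries exceeded all skn-1gf and all daf-2lf libraries. The log2 difference from wild type was -1.31 (SE 0.21, edgeR adjusted p = 0.000461) in skn-1gf and -0.81 (SE 0.21, edgeR adjusted p = 0.00607) in daf-2lf, and the double mutant exceeded skn-1gf by 0.81 on the log2 scale (SE 0.21, edgeR adjusted p = 0.00988).

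The TIS11-type zinc finger proteins OMA-1 and OMA-2 together permit oocyte maturation. oma-1 stood at 40.2, 38.05 and 33.9 CPM across wild type, 12.4, 6.58 and 22.7 across skn-1gf, 5.82, 2.87 and 7.29 across daf-2lf and 6.504, 7.05 and 8.55 across the double mutant. oma-2 stood at 15.9, 16.7 and 14.1 CPM across wild type, 5.98, 3.001 and 7.996 across skn-1gf, 7.07, 3.05 and 6.73 across daf-2lf and 6.504, 5.78 and 4.99 across the double mutant. Per length, oma-1 exceeded oma-2 in every wild-type library (ratio 1.96 to 2.16) and every skn-1gf library (1.79 to 2.43), and stood below it in every daf-2lf library (0.706 to 0.930), while the double mutant spanned 0.858 to 1.47. The genes' log2 differences in daf-2lf were -2.81 (SE 0.41, edgeR adjusted p = 0.000128) and -1.47 (SE 0.34, edgeR adjusted p = 0.00361).

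MEX-5 and MEX-6 are closely similar CCCH zinc finger proteins that polarise the zygote. mex-5 measured 80.3, 86.4 and 73.2 CPM across wild type, 20.3, 6.58 and 37.2 across skn-1gf, 10.8, 6.76 and 12.2 across daf-2lf and 14.5, 14.5 and 14 across the double mutant. mex-6 measured 30.7, 32.9 and 24.2 CPM across wild type, 7.33, 3.58 and 10.9 across skn-1gf, 3.66, 2.39 and 3.65 across daf-2lf and 3.96, 3.32 and 3.91 across the double mutant. mex-5 was above mex-6 in all 12 libraries, with a per-length ratio of 2.51 to 2.91 in wild type, 1.77 to 3.27 in skn-1gf animals, 2.71 to 3.20 in daf-2lf and 3.44 to 4.18 in double mutants. How reads shared by such similar genes were assigned is not given in the sources used here, so each pair's split is uncertain.

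Of the remaining CCCH proteins that specify blastomeres or the germ lineage, pos-1 had log2 differences of -2.43 in skn-1gf and -3.14 in daf-2lf, mex-1 of -2.41 and -2.89, and pie-1, which keeps germ cell precursors transcriptionally silent, of -1.26 and -1.27. spn-4, an RRM protein of the embryo, changed by -1.31 and -1.69. pie-1, mex-1 and puf-3 overlap genes on the opposite strand that hold 1060%, 24.1% and 131% of their own counts.

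The other Pumilio-family members came as pairs of paralogs. puf-3 stood at 31.4, 38.7 and 27.9 CPM across wild type, 5.305, 2.36 and 8.74 across skn-1gf, 3.71, 1.67 and 3.198 across daf-2lf and 3.37, 3.09 and 3.002 across the double mutant. puf-11 stood at 30.5, 32.7 and 23.9 CPM across wild type, 7.15, 5.36 and 11.4 across skn-1gf, 7.17, 2.87 and 5.39 across daf-2lf and 4.503, 5.37 and 4.54 across the double mutant. These 2 were nearly level per length in wild type (puf-3 to puf-11 ratio 1.02 to 1.18), and puf-3 was the lower in every library of skn-1gf (0.439 to 0.764), daf-2lf (0.515 to 0.591) and the double mutant (0.574 to 0.744).

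puf-6 stood at 12.8, 13.3 and 13.3 CPM across wild type, 3.06, 1.34 and 4.93 across skn-1gf, 1.96, 0.957 and 2.41 across daf-2lf and 2.23, 1.59 and 2.51 across the double mutant. puf-7 stood at 11.5, 12.7 and 10.2 CPM across wild type, 2.56, 1.34 and 7.83 across skn-1gf, 1.81, 0.658 and 1.46 across daf-2lf and 1.73, 1.55 and 1.47 across the double mutant. Both lay below wild type in every mutant library. The ratio of puf-6 to puf-7 per length was 1.02 to 1.28 in wild type, and the mutants spread around that range, from 0.617 to 1.17 in skn-1gf, 1.06 to 1.62 in daf-2lf and 1.01 to 1.68 in double mutants.

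**Figure D3:**
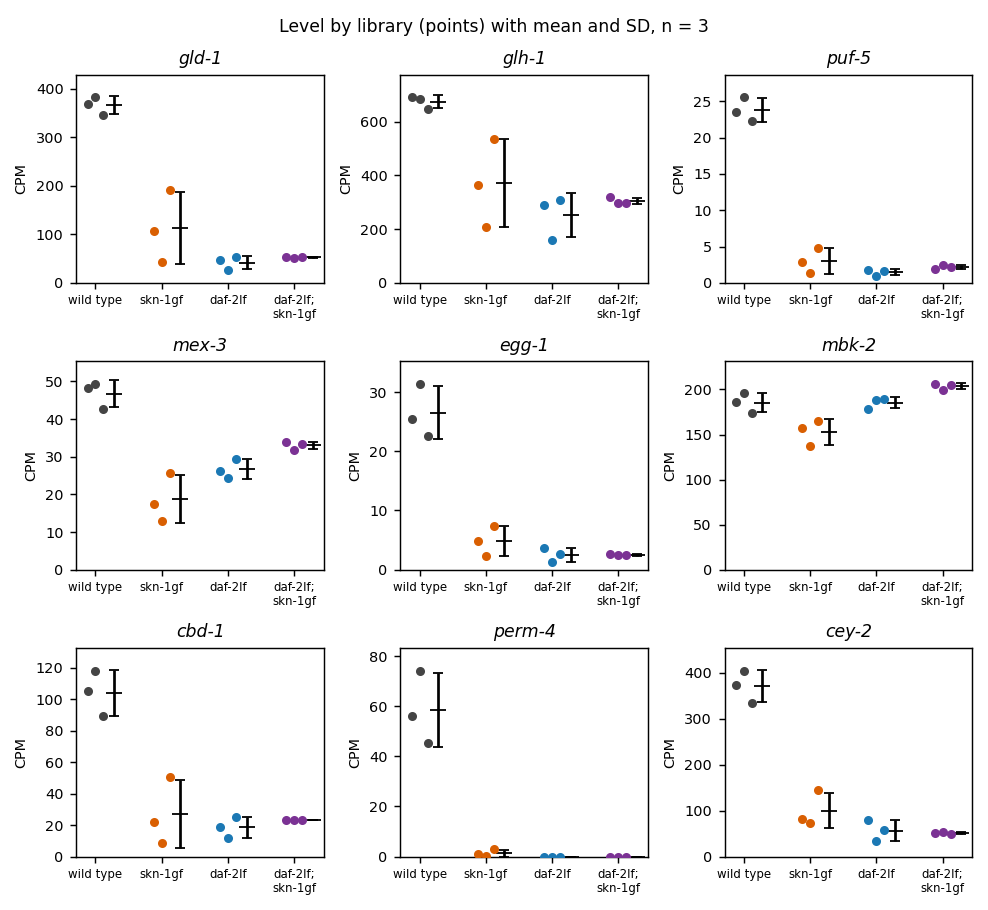
CPM of 9 genes in each library (points) by genotype, with the group mean and SD (n = 3); gld-1 and glh-1 stand for the stem cell and P granule genes, puf-5 and mex-3 for the RNA-binding genes, egg-1 and mbk-2 for egg activation, cbd-1 and perm-4 for the eggshell and cey-2 for the ribonucleoprotein genes. The mutant points lie below wild type in all panels but that of mbk-2.

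Of the 6 egg activation genes, 5 fell in both single mutants (medians over the 6 of -1.42 and -2.29 log2) and mbk-2 did not pass in either. EGG-1 and EGG-2 are LDL-receptor-repeat proteins of the oocyte surface needed for sperm entry, and EGG-3, EGG-4 and EGG-5 are phosphatase-like proteins that hold the kinase MBK-2 at the cortex until meiosis proceeds. egg-1 (gene 175804, III:5728180-5730159, plus strand) fell most, at 25.5, 31.4 and 22.6 CPM across wild type, 4.81, 2.299 and 7.42 across skn-1gf, 3.61, 1.25 and 2.58 across daf-2lf and 2.68, 2.41 and 2.41 across the double mutant. egg-2 stood at 12.2, 13.3 and 11.9 CPM across wild type, 4.09, 3.38 and 7.13 across skn-1gf, 2.31, 1.495 and 3.76 across daf-2lf and 3.05, 2.82 and 2.897 across the double mutant. Wild type was above every mutant library for both genes; log2 differences of egg-1 were -2.43 (SE 0.39, edgeR adjusted p = 0.000435) and -3.40 (SE 0.41, edgeR adjusted p = 2.62e-05), those of egg-2 -1.34 (SE 0.31, edgeR adjusted p = 0.00495) and -2.30 (SE 0.33, edgeR adjusted p = 0.000104).

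egg-1 exceeded egg-2 per length in wild type (ratio 1.87 to 2.32), and the ratio was 0.668 to 1.16 in skn-1gf, 0.675 to 1.54 in daf-2lf and 0.817 to 0.866 in double mutants. egg-4 stood at 11.8, 13.3 and 11.2 CPM across wild type, 4.05, 2.17 and 6.67 across skn-1gf, 3.01, 2.15 and 2.3 across daf-2lf and 2.91, 2.32 and 3.84 across the double mutant. egg-5 stood at 19.4, 19.1 and 15.2 CPM across wild type, 3.102, 1.02 and 4.72 across skn-1gf, 3.11, 1.55 and 4.04 across daf-2lf and 3.87, 3.77 and 3.14 across the double mutant. The per-length ratio of egg-4 to egg-5 was 0.608 to 0.737 in wild type and 1.31 to 2.13 in skn-1gf, without overlap. It was 0.570 to 1.39 in daf-2lf and 0.615 to 1.22 in double mutants, both of which overlap wild type. The 2.13 belongs to skn-1gf replicate 2, which held only 34 raw counts of egg-4 and 16 of egg-5. How reads shared by this pair were assigned is likewise not given. egg-3 changed by -1.36 in skn-1gf and -2.17 in daf-2lf on the log2 scale. egg-1 and egg-3 overlap opposite-strand genes that hold 37% and 38.2% of their own counts.

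mbk-2 (gene 178250, IV:13009158-13035961, plus strand), a DYRK-family kinase of the oocyte-to-embryo transition that is also used in other tissues, was the only gene whose double-mutant mean was its highest. It measured 187, 196 and 174 CPM across wild type, 158, 137 and 165 across skn-1gf, 178, 188 and 189 across daf-2lf and 206, 199.9 and 205 across the double mutant. skn-1gf lay below wild type without overlap but did not pass (-0.28, SE 0.12, edgeR adjusted p = 0.0714), and daf-2lf overlapped wild type, with a difference of 0.00 and a 95% interval of -0.25 to 0.25. The double mutant exceeded skn-1gf by 0.41 on the log2 scale (SE 0.12, edgeR adjusted p = 0.0164).

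All 7 eggshell genes were called lower in both single mutants, with median log2 differences of -2.75 in skn-1gf and -2.85 in daf-2lf. perm-4 and perm-2, which encode proteins of the vitelline layer, lost nearly all signal. perm-4 (gene 176932) lies at IV:1121494-1125107 on the minus strand and perm-2 (gene 176933) at IV:1126790-1128865 on the plus strand, 1682 bases apart with no gene between them in the table. perm-4 stood at 55.99, 74.3 and 45.2 CPM across wild type, 0.944, 0.255 and 2.98 across skn-1gf, 0 in all libraries of daf-2lf and 0 in all libraries of the double mutant, and its raw counts were 1482, 1543 and 979 in wild type and 21, 4 and 72 in skn-1gf. With 0 counts in all 6 libraries that carry daf-2lf, its level was at least 326-fold lower in daf-2lf than in wild type, and at least 429-fold lower in double mutants.

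perm-2 stood at 16.5, 25.4 and 14.7 CPM across wild type, 0.405, 0.192 and 1.08 across skn-1gf, 0 in all libraries of daf-2lf and 0, 0.0455 and 0 across the double mutant. A single count in the double mutant and none in daf-2lf put it at least 105-fold lower in daf-2lf than in wild type, and the wild-type level was 1353 times that of the double mutant (95% counting interval 243 to 53450). In skn-1gf the log2 difference was -4.98 (SE 0.49, edgeR adjusted p = 3.66e-05) for perm-2 and -5.32 (SE 0.65, edgeR adjusted p = 0.000426) for perm-4. The skn-1gf levels of both genes, although low, exceeded all 6 libraries with daf-2lf. The perm-2 raw counts in skn-1gf were 9, 3 and 26, so its replicate 2 lay at the floor of 3 counts. For perm-4 that library held 4 counts.

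cpg-2 (gene 175991, III:7102092-7103990, minus strand), a chondroitin proteoglycan of the eggshell, fell least in daf-2lf, at 94.99, 119.8 and 78.5 CPM across wild type, 13.4, 7.28 and 22.8 across skn-1gf, 26.99, 14.2 and 25.7 across daf-2lf and 24.6, 22.4 and 19.9 across the double mutant. The skn-1gf mean was the lowest of the genotypes, but its replicate 3 lay among the daf-2lf libraries; log2 differences were -2.75 (SE 0.37, edgeR adjusted p = 0.00013) and -2.13 (SE 0.36, edgeR adjusted p = 0.000386). Its relatives cpg-1 and cpg-3 changed by -2.72 and -3.18 in skn-1gf and by -2.99 and -2.85 in daf-2lf on the log2 scale. cbd-1, a chitin-binding protein of the vitelline layer, changed by -1.93 and -2.48, and chs-1, the eggshell chitin synthase, by -1.58 and -2.37. The chs-1 value includes 2.41 CPM in daf-2lf replicate 1 beside 6.16 and 10.3 CPM, and without that replicate the difference was -2.09 (edgeR adjusted p = 0.00164). cpg-3 overlaps R06C7.6 on the opposite strand, which holds 37.1% of its own counts.

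rme-2 (gene 177329, IV:5470026-5473174, plus strand) encodes the oocyte receptor that takes up yolk. It stood at 51.4, 51.9 and 39.1 CPM across wild type, 9.8, 3.96 and 16.3 across skn-1gf, 7.27, 3.77 and 8.58 across daf-2lf and 8.14, 7.68 and 7.92 across the double mutant. All mutant libraries lay below wild type, and the log2 differences were -2.23 (SE 0.41, edgeR adjusted p = 0.0012) in skn-1gf and -2.86 (SE 0.42, edgeR adjusted p = 0.000138) in daf-2lf. The 6 genes of yolk proteins, made in the intestine, summed to 421 to 626 CPM in wild type, 34.4 to 61.0 in skn-1gf animals, 1.56 to 1.91 in daf-2lf and 2.18 to 3.05 in double mutants.

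The 4 genes of oocyte ribonucleoprotein particles included the 3 with the highest wild-type level per length, cey-2 at 367, cgh-1 at 251 and car-1 at 248 CPM per kilobase. All 4 were called lower in both single mutants, with medians of -1.39 and -1.77 log2. CEY-2 and CEY-3 are Y-box RNA-binding proteins, CGH-1 a DDX6-family helicase and CAR-1 an Lsm-domain partner. cey-2 (gene 172219, I:5619569-5620669, plus strand) fell most, at 373, 405 and 335 CPM across wild type, 82.3, 74.1 and 144 across skn-1gf, 79.6, 33.2 and 57.2 across daf-2lf and 51.9, 54.1 and 49.04 across the double mutant. cey-3 stood at 178, 181 and 162 CPM across wild type, 70.3, 61.3 and 92.2 across skn-1gf, 86.8, 33.3 and 52.9 across daf-2lf and 49.4, 50.2 and 53.6 across the double mutant. Wild type was above every mutant library for both; log2 differences were -1.89 (SE 0.30, edgeR adjusted p = 0.000485) and -2.71 (SE 0.31, edgeR adjusted p = 1.86e-05) for cey-2 and -1.22 (SE 0.28, edgeR adjusted p = 0.00454) and -1.59 (SE 0.28, edgeR adjusted p = 0.000508) for cey-3.

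The per-length ratio of cey-2 to cey-3 was highest in wild type and next in skn-1gf, without overlap: 2.03 to 2.19 in wild type, 1.15 to 1.53 in skn-1gf animals, 0.898 to 1.06 in daf-2lf and 0.896 to 1.06 in double mutants. car-1 (gene 173158, I:12904470-12906040, plus strand) fell least, at 349, 380.2 and 331 CPM across wild type, 168, 129 and 215 across skn-1gf, 198, 149 and 162 across daf-2lf and 175, 161 and 177 across the double mutant. Its log2 differences of -1.05 (SE 0.18, edgeR adjusted p = 0.000787) and -1.06 (SE 0.18, edgeR adjusted p = 0.000403) differed by less than their standard errors. cgh-1 changed by -1.56 and -1.95.

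Between the double mutant and daf-2lf, 0 of the 43 genes were called, where 1.62% of all tested genes were called and 0.616% were called lower. None passed an unadjusted p under 0.05 with edgeR, DESeq2 also called 0, and limma-voom with sample quality weights called 8, all higher, where it called 13.6% of all genes in either direction. Of the 40 genes with counts in both groups, log2 differences ran from -0.36 to 0.74, 34 of them positive, with a median of 0.28. Over the 43 the median was 0.28, but -0.01 with a length trend removed from each library and 0.07 without daf-2lf replicate 2. In the other direction it was 0.65 with limma-voom and 0.45 without daf-2lf replicate 3. The lowest edgeR adjusted p was 0.389. The 95% intervals reached from -0.96 (puf-7) to 1.74 (chs-1), and 18 lay within 1 log2 unit of 0, while the others reached past it. Libraries did not overlap for pgl-3, mex-3, mex-5, puf-5 and mbk-2, all higher in the double mutant, as for 11.5% of all genes in this direction. The double-mutant libraries lay close together, at 33.8% to 35.4% of the wild-type sum of the 43 genes, beside 23.4% to 34.3% in daf-2lf.

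Set against skn-1gf, the double mutant differed in 6 of the 43 genes, where 31.7% of all tested genes were called. mex-3 and mbk-2 were higher, as given above, where 13.4% of all genes were called higher. mex-6 (log2 difference -0.98, SE 0.33, edgeR adjusted p = 0.0383), cey-2 (-0.95, SE 0.30, edgeR adjusted p = 0.0278), perm-2 (-4.92, SE 1.03, edgeR adjusted p = 0.00418) and perm-4 were lower, where 18.4% were. perm-4 was at least 10.25-fold lower than the skn-1gf mean (edgeR adjusted p = 0.00516). The call of mex-6 was lost in 9 of 22 alternative fits, that of mbk-2 in 7, that of cey-2 in 4 and that of mex-3 in 1. Without skn-1gf replicate 2 the count was 18, and without skn-1gf replicate 1 it was 3. Of all genes, those fits called 4278 and 3870, beside 4944 with every library.

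The effect of skn-1gf differed between backgrounds. The interaction, the log2 difference of the double mutant from daf-2lf minus that of skn-1gf from wild type, was positive in 30 of the 43 genes at an edgeR adjusted p under 0.05 and negative in none, where 9.91% of all tested genes were called positive and 27.7% in either direction. Its median was 1.78, against -0.05 over all genes, and 1.77 over the 40 genes with counts in every genotype. Called genes comprised 13 of 14 RNA-binding genes, 5 of 6 egg activation genes, 5 of 7 eggshell genes, 3 of 4 ribonucleoprotein genes, 3 of 7 stem cell genes, and rme-2. The 4 P granule genes had sizes of 1.14 to 1.75 and did not pass (edgeR adjusted p = 0.0537 to 0.0801). All 4 passed with DESeq2, with limma-voom, with the replicate block and without skn-1gf replicate 3. In 13 of 21 alternative fits 0 of them passed. The largest sizes were 3.53 (SE 0.51, edgeR adjusted p = 0.00056) for puf-5 and 3.09 (SE 0.69, edgeR adjusted p = 0.00705) for cpg-1; nos-2 was called too, but its size is not interpretable because daf-2lf held 0 counts. The daf-2lf levels that the double mutant is set against had a median of 18.01% of wild type. The count was 20 without skn-1gf replicate 1 and likewise without double mutant replicate 3. Of all genes, those fits called 2951 and 2944 in either direction, beside 4308 with every library.

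**Figure D4:**
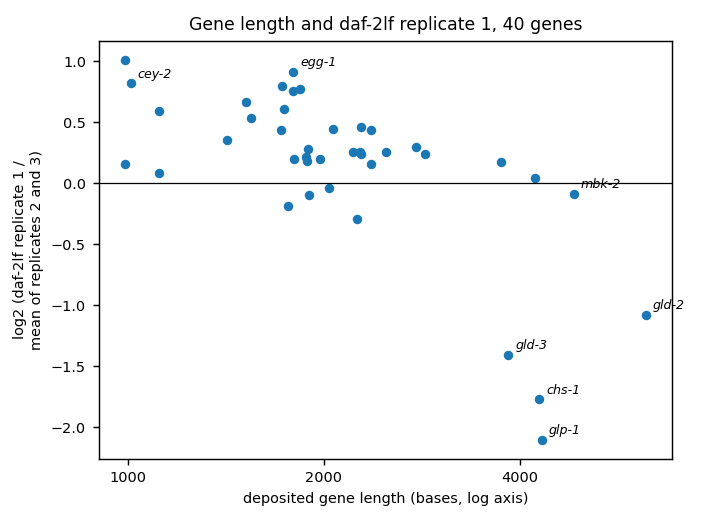
Log2 ratio of daf-2lf replicate 1 to the mean of replicates 2 and 3 (vertical axis) against gene length in bases (horizontal axis) for the 40 genes with counts in daf-2lf. The 7 genes over 3500 bases have a median of -1.08 and the 21 under 2000 bases one of 0.44.

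The low values of long genes in daf-2lf replicate 1 reached the members as well: their median log2 ratio to the other replicates was 0.44 for 21 genes under 2000 bases, 0.25 for 12 of 2000 to 3500 bases and -1.08 for 7 longer ones. glp-1, gld-2, gld-3 and chs-1 were low there, while mbk-2, cbd-1 and glh-4, also long, were not. The count of genes called lower in daf-2lf was 39 to 42 with each library left out in turn.

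Of 33 further germ line and oocyte genes, 32 were tested; 20 were called lower and 0 higher in skn-1gf (median -0.89), and 25 lower and 3 higher in daf-2lf (median -1.29). Of all tested genes, 21% were called lower and 22.6% higher in skn-1gf, and 22.9% lower and 29.5% higher in daf-2lf. The 3 higher genes, named after their values were seen, were fog-1 and fog-3, which direct germ cells to the sperm fate, and lin-41, a TRIM-NHL protein of growing oocytes that also acts in larval timing. fog-1 averaged 5.54 ± 1.20 CPM in wild type and 22.1 ± 5.10 in daf-2lf (SD, n = 3), a log2 difference of 2.00 (edgeR adjusted p = 2.16e-04). lin-41 averaged 46.7 ± 1.62 and 169.5 ± 32.3 CPM, a difference of 1.86 (edgeR adjusted p = 8.64e-06), and fog-3 5.01 ± 1.03 and 9.12 ± 2.23 CPM, a difference of 0.86 (edgeR adjusted p = 0.031). In the double mutant against daf-2lf, 0 of the 32 were called, where 1.62% of all tested genes were. The interaction was called positive in 20 of them, where 9.91% of all tested genes were.

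Like the 43 genes as a set, sperm genes summed to less than wild type in every mutant, but they fell much further with daf-2lf. They stood at 0.153% to 0.235% of wild type in daf-2lf and 0.1675% to 0.248% in double mutants. The 43 genes stood at 23.4% to 34.3% and 33.8% to 35.4% there. All 6 yolk protein genes were called lower in each single mutant too, and the remaining lists did not share 1 direction. The 13 sperm genes summed to 724 to 828 CPM in wild type, 165 to 436 in skn-1gf animals, 1.20 to 1.85 in daf-2lf and 1.32 to 1.96 in double mutants; 8 of the 13 were at 0 in every daf-2lf library and 5 in the double mutant. All 13 were called lower in daf-2lf and 11 in skn-1gf. Against skn-1gf, the double mutant was lower in all 13, in 4 of the 43 genes and in 18.4% of all tested genes. Somatic gonad genes (8) summed to 116 to 129 CPM in wild type, 99.9 to 114 in skn-1gf animals, 72.3 to 102 in daf-2lf and 100.3 to 104 in double mutants. That sum rests largely on ceh-18 and fos-1: 3 of the 8 were called lower and 1 higher in skn-1gf, and 4 lower and 0 higher in daf-2lf, among them fkh-6 with a log2 difference of -3.97, inx-8 with -2.76 and inx-9 with -1.90. Genes first read in the embryo (10, of which 2 were tested) summed to 6.84 to 8.57, 5.14 to 8.68, 10.2 to 15.5 and 9.82 to 10.6 CPM in the same order, with 3 of the 10 at 0 throughout wild type and 4 in each mutant. That sum is nearly all elt-7, at a mean of 7.09 CPM in wild type and 11.8 in daf-2lf, and elt-7 and vet-2, the 2 tested, were called higher in daf-2lf.

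Of the 5 hypodermis and cuticle genes, 4 were called lower in skn-1gf, and 2 lower and 2 higher in daf-2lf. col-19, an adult-specific collagen, averaged 2.04 CPM in wild type, 0.207 in skn-1gf animals, 0.296 in daf-2lf and 0.145 in double mutants, and bli-1 1131, 141, 0.520 and 1.10 CPM. In daf-2lf dpy-7 and rol-6 were higher by 1.64 and 0.89 on the log2 scale (edgeR adjusted p = 8.59e-04 and 0.00793), and the difference of dpy-4 was 0.04. The summed hypodermis and cuticle list stood at 13.6% to 20.2% of the wild-type mean in skn-1gf and 63.1% to 125% in both genotypes with daf-2lf. Over all mutant libraries, body wall muscle genes summed to 72.2% to 138% of wild type, intestine genes to 163% to 268% and neuron genes to 119.1% to 171%. The largest parts of these sums came from unc-54, act-5 and snb-1, with wild-type means of 4994, 1047 and 114.5 CPM. Of the 5 intestine genes, 3 were called higher in skn-1gf and 5 in daf-2lf. The skn-1gf difference of ges-1 was -0.21 on the log2 scale and was not called (edgeR adjusted p = 0.331). Of 5 muscle genes, 1 was called higher in each single mutant. Stage at harvest is not given in the labels, so genotype and stage cannot be told apart, and the part of stage, sperm content or gonad size in the results above was not tested.

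**Figure D5:**
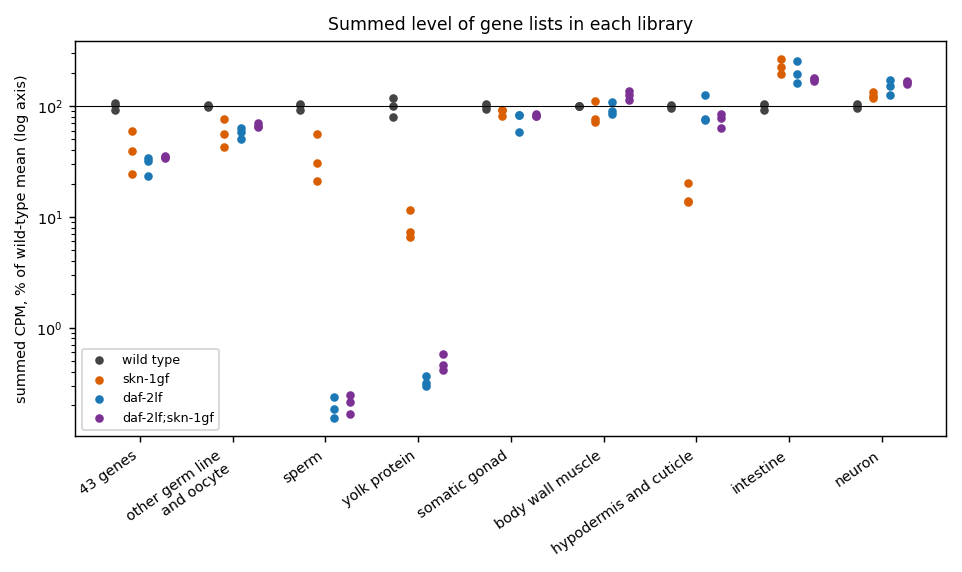
Summed CPM of each gene list as a percentage of the wild-type mean (log axis), with a point for each library by genotype. Sperm and yolk protein lists fall below 1% of wild type in all 6 libraries with daf-2lf, the 43 genes lie between 23.4% and 59.5% in the mutants, and somatic gonad genes between 58.9% and 92.7%.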

How the data were processed

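The authors deposited a single table of raw counts per gene for 12 libraries, per the file header, with no normalization. The aligner, the counting program and the handling of strand are not given in the sources used here. Build ce10 is listed in the submitters' processing notes, but the chromosome accessions in the deposited table are those of WBcel235, whose coordinates are printed; all 43 genes matched RefSeq and 38 had the same coordinates there. Nothing in the labels says whether replicates were separate cultures, so p-values measure the spread between these libraries, which may be technical.

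Counts were analysed in R 4.3.3 with edgeR 4.0.16. filterByExpr at a minimum count of 10 kept 15575 genes, TMM scaled the libraries, and all 12 were fitted together with genotype as the factor. Quasi-likelihood F tests were adjusted by Benjamini-Hochberg over all tested genes, with 0.05 as the threshold. CPM is a count per 1e6 of the TMM-scaled total. Per-length levels used the deposited gene length. Floors (3 counts) and counting intervals cover counting error only. The fit was also run on simulated data, and the outcome is not given here. DESeq2 1.42.0 and limma 3.58.1 (voom with quality weights) were alternatives.

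The members and gene lists were chosen with earlier results of these data known. Values of every library were printed for the genes with the largest and smallest daf-2lf difference in each role, the 3 largest and 3 smallest skn-1gf differences, and paralog pairs; those of glp-1 and gld-1 were added after seeing them. No per-sample column was left unused (0).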

Additional observations from a re-analysis of the deposited data

Results flagged for a closer look

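The effect of skn-1gf differed between the wild-type and daf-2lf backgrounds in 30 genes by the interaction test. In each, the difference of the double mutant from daf-2lf exceeded that of skn-1gf from wild type, and the values below are that excess on the log2 scale. Each passed an edgeR adjusted p under 0.05. Of the 29 with a size, 18 passed in all 21 alternative fits; the call of pie-1 was lost in 11, oma-2 in 10, spn-4 in 9, cbd-1 and egg-2 in 6 each, gld-3 and egg-3 in 5 each, oma-1 in 4, chs-1 in 3, egg-4 in 2 and gld-1 in 1. nos-2 is among the 30 and has no interpretable size, because all daf-2lf libraries held 0 counts.

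Among stem cell regulators the values were 2.03 for gld-1 and 1.86 for gld-3. RNA-binding genes of the oocyte and early embryo gave 1.89 for oma-1, 1.48 for oma-2, 2.78 for pos-1, 2.79 for mex-1, 1.62 for mex-3, 2.42 for mex-5 and 2.20 for mex-6. The remaining members of that role gave 1.26 for pie-1, 1.38 for spn-4, 2.69 for puf-3, 3.53 for puf-5, 2.30 for puf-6 and 1.75 for puf-11. Egg activation genes gave 2.43 for egg-1, 1.56 for egg-2, 1.78 for egg-3, 1.76 for egg-4 and 2.87 for egg-5. For the eggshell the values were 2.31 for chs-1, 2.26 for cbd-1, 3.09 for cpg-1, 2.75 for cpg-2 and 2.82 for cpg-3, and the yolk receptor rme-2 had 2.51. Ribonucleoprotein genes gave 1.76 for cey-2, 1.06 for car-1 and 1.71 for cgh-1. The gld-3 and chs-1 values include daf-2lf replicate 1, in which long genes were low; without it they were 1.60 and 1.99, and both still passed (edgeR adjusted p = 0.0165 and 0.0171).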

How the results depend on the processing

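Counts of called genes were recomputed under 10 alternatives (9 for the interaction, to which a fit of only the groups compared does not apply) and with each of the 12 libraries left out. For skn-1gf against wild type they ranged from 36 to 43 and, with a library left out, from 30 to 42. For daf-2lf against wild type both ranges were 39 to 42, and for the interaction they were 26 to 43 and 20 to 39. Both counts of 43 came from limma-voom, which called 75.4% and 60.6% of all genes there. The 42 of skn-1gf came without daf-2lf replicate 1, where 9522 of all genes were called, beside 6787 with every library. The 39 of the interaction came without skn-1gf replicate 3, where 5371 were called, beside 4308. For the double mutant against daf-2lf the count was 0 except under limma-voom with sample quality weights, which gave 8, and 0 with each library left out. For the double mutant against skn-1gf limma-voom gave 23 in place of 6, where it called 64.9% of all genes. Leaving out single libraries gave 3 to 18 there, and the fit of all libraries called 4944 of all genes. The count was 18 without skn-1gf replicate 2 (4278 of all genes called) and 10 without daf-2lf replicate 1 (7318 of all genes). It was 3 without skn-1gf replicate 1, double mutant replicate 1 or double mutant replicate 3 (3870, 3972 and 3850 of all genes). Under limma-voom the uncalled differences of cey-3 in the double mutant against daf-2lf and of pie-1 against skn-1gf turned to called values of 0.46 and 0.38 (limma adjusted p = 0.0376 and 0.0400). The cause was not tested. RLE scaling moved the median log2 difference of all genes from 0.03 to -0.13 in skn-1gf and from 0.15 to -0.03 in daf-2lf, and the members' medians to -1.70 and -2.65.

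Replicate numbers recur in every genotype, but same-numbered libraries mostly did not deviate together. Correlations of their deviations over all genes ranged from -0.129 to 0.296, and 2 of 18 exceeded 0.1. Those 2 were of skn-1gf with daf-2lf, at replicate 2 (0.192) and replicate 3 (0.296). In these genotypes replicate 2 was the lowest for 41 and 34 of the genes, and replicate 3 the highest for 42 and 22. With the replicate block the counts were 39 for skn-1gf and 41 for daf-2lf against wild type, 0 for the double mutant against daf-2lf, 5 against skn-1gf and 35 for the interaction. The protein and promoter comparisons of paralogs planned at the outset were not run. Depth limits nos-2, perm-2 and perm-4, whose mutant counts reach 0 to 3 in at least 1 genotype.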

Other observations

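Ratios between roles within a library do not depend on its scaling. The summed level of the eggshell genes divided by that of the P granule genes was 0.239 to 0.329 in wild type, 0.0789 to 0.108 in skn-1gf, 0.126 to 0.149 in daf-2lf and 0.121 to 0.138 in the double mutant. The skn-1gf range lay below those of both daf-2lf genotypes, and all mutant ranges lay below wild type. A large part of the mutant eggshell sums was cpg-2, with a mean of 14.5 CPM for skn-1gf and 22.3 CPM for each genotype carrying daf-2lf. The cpg-3 mean was likewise lower in skn-1gf than in daf-2lf, while those of chs-1, cbd-1, perm-2, perm-4 and cpg-1 were higher. Whether the separation of skn-1gf holds without cpg-2 was not tested. For the RNA-binding genes of the oocyte and early embryo over the P granule genes, the ratio was 0.302 to 0.350 in wild type, 0.182 to 0.203 in skn-1gf, 0.206 to 0.261 in daf-2lf and 0.216 to 0.225 in the double mutant. Over the stem cell genes, the eggshell ratio was 0.464 to 0.620 in wild type, and skn-1gf (0.144 to 0.238) overlapped daf-2lf (0.196 to 0.391) and the double mutant (0.209 to 0.257). The 0.391 belongs to daf-2lf replicate 1, in which the long stem cell genes glp-1, gld-2 and gld-3 were low. Replicates 2 and 3 gave 0.196 and 0.261. The eggshell sum itself averaged 62.9 CPM in skn-1gf and 55.1 CPM in daf-2lf. These ratios were chosen with the levels known and were not tested.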
